A study of Hordeum vulgare with 4 samples.

Results

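In 13 barley loci, the summed level of all transcripts in leaves of transgenic plants was from 0.73 to 1.42 times that in wild-type plants. The make-up of that sum differed, with some isoforms holding a larger share of the locus and others a smaller one. At 11 of the 13 loci, 1 isoform took most of the gain. The loci were chosen by the FPKM values of both groups in the authors' deposited table, which has 51141 transcripts in 17771 loci, so the differences that chose them are a description and carry no test. The rule asked for a nuclear locus with a HORVU gene model name on chromosomes 1H to 7H, a span under 20000 bases and 2 or more transcripts (10356 loci), a sum of 30 FPKM or more in both groups (2291 loci), and a ratio of the sums, transgenic over wild type, from 0.67 to 1.5 (1377 loci, called steady below). In the last step, some transcript had to differ by 40 percentage points or more in its share of the locus sum, which left 13 of the 1377 steady loci, or 0.944%. FPKM is a level scaled to transcript length and sequencing depth, so that isoforms of different length can be set side by side. How reads that fit several isoforms of a locus were divided among them is unstated, and every share rests on that step.

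The study sequenced leaf RNA of barley cultivar Golden Promise in 2 wild-type and 2 transgenic samples. The transgenic plants carried a constitutively expressed HvHSFA6a, a heat stress transcription factor gene, the wild-type plants were not transformed, and leaves were taken at 3 weeks. Seeds were germinated in a greenhouse with days of 18 °C, nights of 16 °C and a photoperiod of 16 h, and the protocols name a chamber at 34 °C for heat tolerance in transgenic and wild-type plants alike. The labels give only the transgenic samples a treatment, 42 °C for 30 minutes, and call wild type the control, so that genotype and labelled heat cannot be told apart. The sources used here do not name the promoter, nor say whether the 2 transgenic samples, which carry different codes, are of 1 line. For each transcript and group the table has 1 FPKM value, rounded to a whole number, so that none of the differences could be checked against replicates, and sequencing depth is unknown. A lower level of an isoform in a bulk sample cannot be told apart from fewer cells that hold it. Directions follow the column headers. The table's own words for a rise or a fall run against the headers in all 1255 transcripts that carry one. Its words for a transcript specific to 1 group follow the headers in the loci described below. There, 38 transcripts are listed at 0 in 1 group only, and each is called specific to the other group. With the groups exchanged every gain below would be a loss. No row is named HvHSFA6a, and leaf identity could be looked at only through plastid genes such as rbcL, for the large subunit of Rubisco, at 123 FPKM in transgenic and 190 FPKM in wild type.

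Most plant genes with introns can give several mature RNAs, through alternative start sites, splice sites, retained introns and poly(A) sites, and heat is well known to shift splicing in plants, including that of transcripts for heat stress factors. Such a shift can change the encoded protein, or make an RNA that is degraded, with the summed level of the gene nearly constant. The table describes each assembled transcript by a class code, which in the scheme of the Cufflinks programs is = where the intron chain equals that of an annotated transcript and j where it shares at least 1 splice junction but is otherwise different. A start group in the same scheme joins transcripts inferred to begin at the same place. The gaining isoform of a locus is the transcript with the largest rise in share from wild type to transgenic, and the losing isoform is that with the largest fall.

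All 13 gaining and all 13 losing isoforms had class code =, so the intron chains of the leading transcripts of each exchange were already in the annotation. The code does not say whether their starts and ends were. This follows the make-up of the table, in which 4.16% of transcripts had code j. In the 1362 other steady loci with a gaining and a losing isoform, 96.9% of gaining and 97.4% of losing isoforms had code = as well. The 13 loci did hold j transcripts, 6 among their 77 (7.79%, against 5.88% of the 6171 transcripts in the other steady loci), but none of the 6 was the main isoform in either group. The highest of them was in the second locus on 5H, at 13 FPKM in transgenic and listed at 0 in wild type. At the third locus on 7H, a j transcript of 945 nt had 1 FPKM in transgenic and 8 FPKM in wild type, or 2.38% and 17.4% of the locus.

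The main isoform, the transcript of highest FPKM, was a different one in each group at 11 of the 13 loci, against 77 of the other 1364 steady loci (5.65%). The rule itself favours this, so nothing is read from it. The exceptions to the name of an isoform switch were the third locus on 6H, where the main isoform was the same in both groups, and the third locus on 7H, where the wild-type main isoform shared the highest transgenic value with another.

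**Figure D1:**
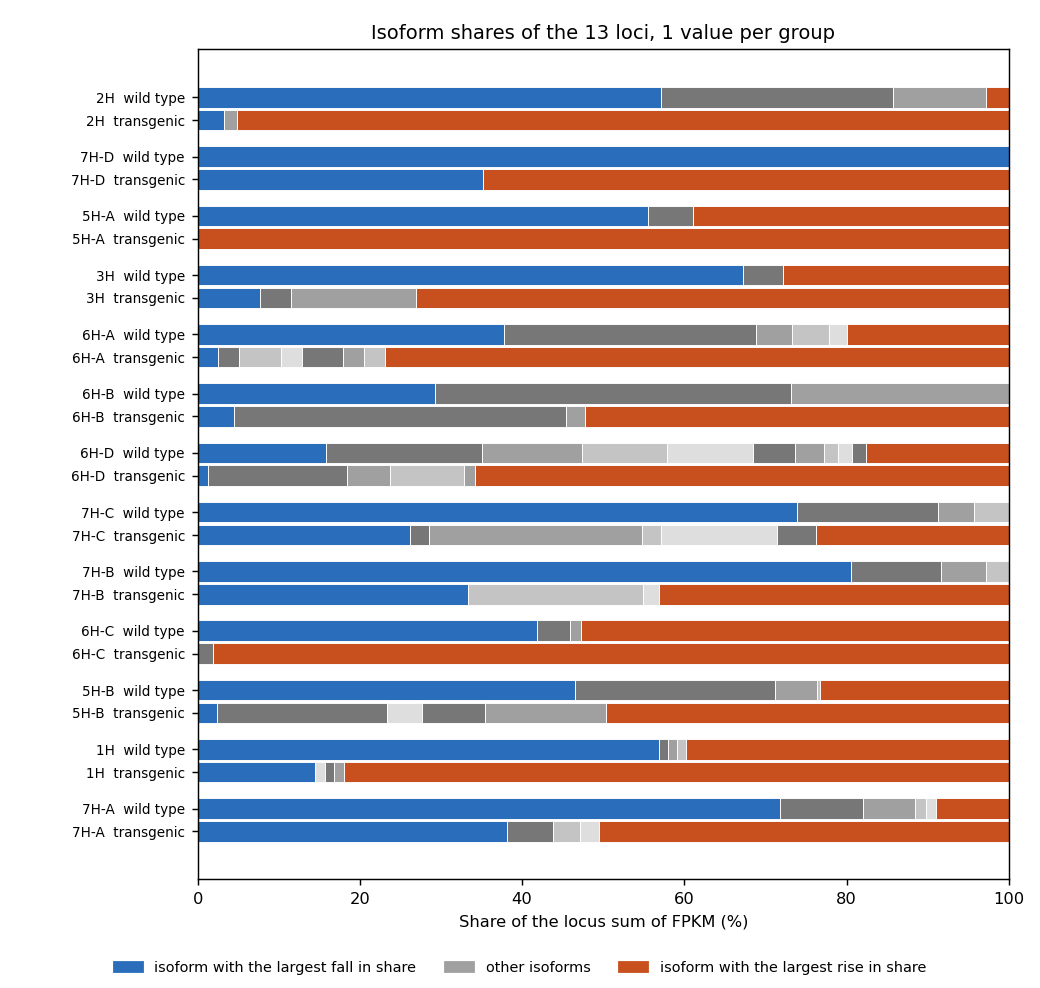
Share of each isoform in the locus sum of FPKM (x axis, %) for wild type and transgenic in each of the 13 loci, ordered from the largest share difference at the top, with the losing isoform in blue, the gaining isoform in orange and the others in grey. Loci are named by chromosome, with letters by position where a chromosome holds several. The orange part takes from 23.8% to 100% of the transgenic bars and from 0% to 52.7% of the wild-type bars.

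The table pairs none of the 13 gene models with a product, and none of the 13 names was found in the RefSeq gene table of barley, made on the MorexV3 assembly. Gene model names are therefore printed for the 4 loci of largest share difference, and the others are named by chromosome and a letter in order of position. Positions count from 1. The sources used here give no genome build for them.

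The largest exchange was at HORVU2Hr1G111570, on 2H from 723117668 to 723119563, with a locus sum of 62 FPKM in transgenic and 70 FPKM in wild type. Isoform 4, of 464 nt, had 59 FPKM in transgenic and 2 FPKM in wild type and was 29.5-fold higher in transgenic, with bounds of 23.4-fold and 39.7-fold from rounding. Such bounds, here and below, cover rounding alone and not the spread between samples. Isoform 2, of 608 nt, had 2 and 40 FPKM in the same order, 20-fold lower in transgenic (15.8-fold to 27-fold). The share of isoform 4 was thus 95.2% in transgenic and 2.86% in wild type, a difference of 92.3 percentage points that stays at 89.2 when every value is moved by 0.5 FPKM against it. The remaining isoforms were on the wild-type side, with isoform 3 (1576 nt) listed at 0 and 20 FPKM and isoform 1 (792 nt) at 1 and 8 FPKM. Every transcript longer than the gaining one was therefore lower in transgenic, and the mean transcript length, weighted by FPKM, was 474 nt in transgenic and 901 nt in wild type.

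At HORVU5Hr1G074350, on 5H from 542981416 to 542991490 (called 5H-A), the exchange went towards a long transcript. Isoform 1, of 3721 nt, had 32 FPKM in transgenic and 14 FPKM in wild type, and isoform 3, of 1416 nt, was listed at 0 and had 20 FPKM. Isoform 1 was the whole locus in transgenic and 38.9% of it in wild type, and isoforms 1 and 3 share a start group. The weighted mean length was 3721 nt in transgenic against 2289 nt in wild type, the largest shift of the 13 loci. Isoform 1 was the only transcript of the 13 loci to pass in the authors' deposited table after Benjamini-Hochberg adjustment over all 51141 transcripts, with an adjusted p of 0.0338 (0.0013 as deposited). A locus that overlaps 5H-A summed to 7 and 3 FPKM in transgenic and wild type.

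HORVU3Hr1G095890, on 3H from 651072350 to 651078356, exchanged transcripts of the same start group that differ in length by 128 nt. Isoform 1 (975 nt) had 4 FPKM in transgenic and 41 FPKM in wild type, 10.3-fold lower with rounding bounds of 9-fold and 11.9-fold. Isoform 3 (847 nt) had 38 and 17 FPKM and went from 27.9% of the locus in wild type to 73.1% in transgenic. Isoform 2 (890 nt) was present on the transgenic side, at 8 FPKM against a listed 0, so the gain was divided between 2 transcripts. The locus summed to 52 FPKM in transgenic and 61 FPKM in wild type.

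At HORVU7Hr1G115980, on 7H from 642558764 to 642562143 (7H-D), the table holds only 2 transcripts, of different start groups. Isoform 4 (567 nt) made up all 44 FPKM of wild type and 13 of the 37 FPKM of transgenic, and was thus 3.38-fold lower in transgenic, with rounding bounds of 3.22-fold and 3.56-fold. The other 24 FPKM of transgenic, 64.9% of the locus, came from isoform 2 (990 nt), which was listed at 0 in wild type. Isoform 2 was thus the main isoform in transgenic, with isoform 4 still at 35.1% of the locus.

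**Figure D2:**
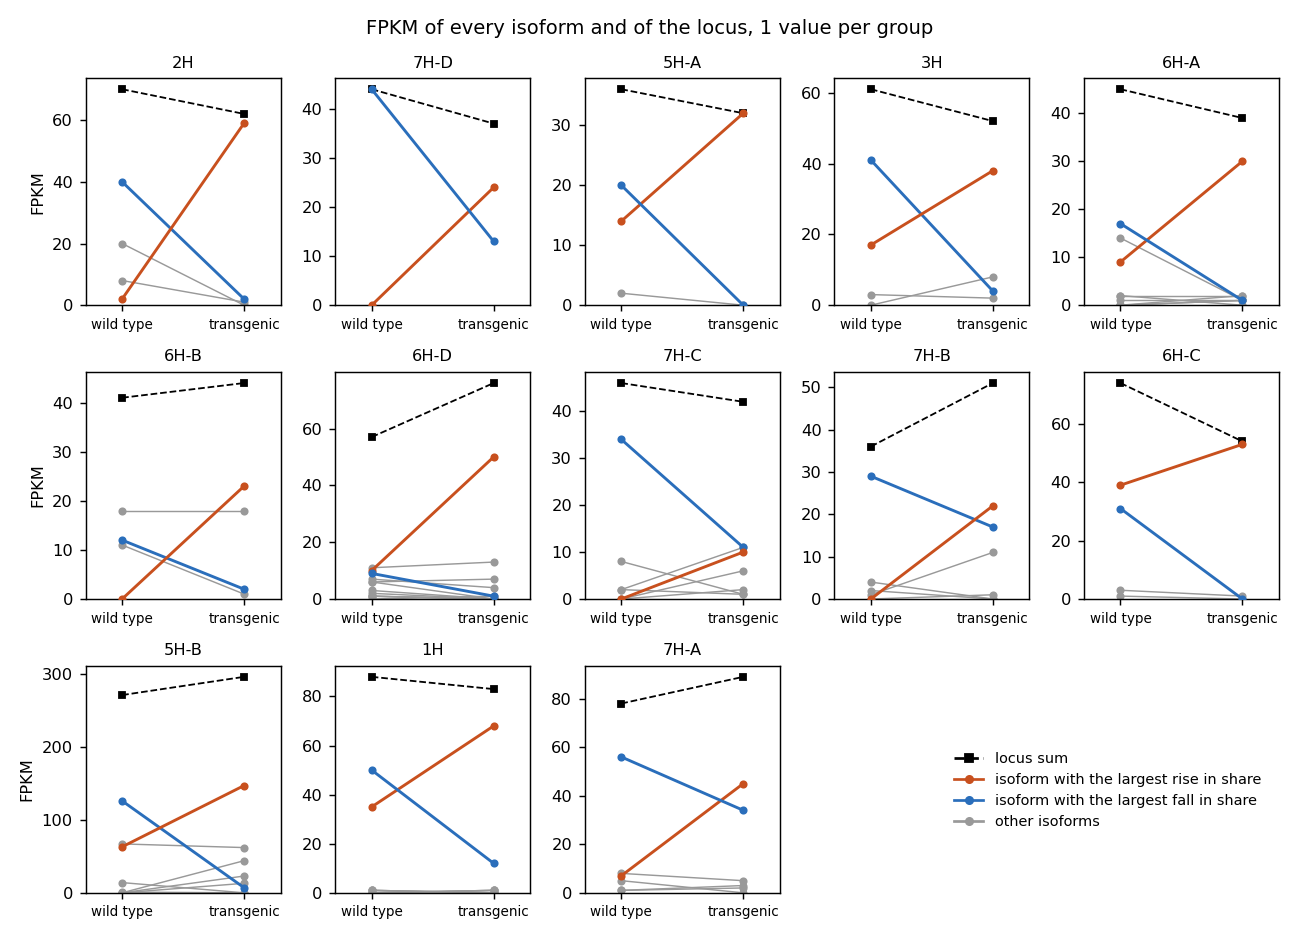
FPKM (y axis) of every isoform and of the locus sum in wild type and transgenic, 1 value per group and 1 panel per locus, in the same order as the bars of shares. The dashed locus sums lie within the ratio window of the rule, with ratios from 0.73 to 1.42, while the orange gaining isoform and the blue losing isoform cross in most panels.

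A further 5 loci likewise had their signal on fewer isoforms in transgenic. The effective number of isoforms, the inverse of the sum of squared shares, is 1 when a locus has 1 transcript and grows as the signal is spread. It was lower in transgenic than in wild type at 8 of the 13 loci, namely 2H, 5H-A, 3H, 1H and all 4 loci on 6H. The other steady loci were nearly balanced, with 47.9% lower in transgenic.

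On 1H, the locus from 11188338 to 11195245 had 83 FPKM in transgenic and 88 FPKM in wild type over 8 isoforms, but only 2 of these carried more than 1 FPKM. Isoform 4 (900 nt) had 68 and 35 FPKM, and isoform 7 (862 nt), of another start group, had 12 and 50 FPKM. The order of these isoforms was thus turned, with shares of isoform 4 of 81.9% in transgenic and 39.8% in wild type.

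The first locus on 6H (6H-A, from 16416655 to 16422215) had 39 FPKM in transgenic and 45 FPKM in wild type. Its isoform 3 (1389 nt) had 30 FPKM in transgenic and 9 FPKM in wild type. Isoform 24 (969 nt) had 1 and 17 FPKM, and isoform 9 (1113 nt) had 1 and 14 FPKM. All 3 share a start group, and the gain of 56.9 percentage points by isoform 3 was set against losses of 35.2 and 28.5. In wild type no isoform of this locus had more than 37.8% of the sum, while in transgenic isoform 3 had 76.9%.

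The second locus on 6H (6H-B, from 16875697 to 16879498) lies 453 kb from the first. It had 44 FPKM in transgenic and 41 FPKM in wild type. Isoform 3 (2074 nt), the wild-type main isoform, had 18 FPKM in both groups. Around it, isoform 2 (1905 nt) had 23 FPKM in transgenic against a listed 0, while isoforms 1 (1013 nt) and 5 (1366 nt) had 2 and 1 FPKM against 12 and 11 FPKM in wild type. Isoforms 2 and 3 share a start group that isoforms 1 and 5 do not, so that start group held 41 of the 44 FPKM of transgenic and 18 of the 41 FPKM of wild type.

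The third locus on 6H (6H-C, from 519489171 to 519492034) kept its main isoform. Isoform 3 (1386 nt) had 53 FPKM in transgenic and 39 FPKM in wild type, and isoform 7 (1383 nt), of another start group, was listed at 0 in transgenic and had 31 FPKM in wild type. The share of isoform 3 was 98.1% and 52.7%. This locus had the lowest ratio of sums of the 13, with 54 FPKM in transgenic and 74 FPKM in wild type, and its exchange was the loss of a second isoform of nearly the same length.

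The fourth locus on 6H (6H-D, from 552804581 to 552808608) had the most transcripts, 12, all in 1 start group. Its sum was 76 FPKM in transgenic and 57 FPKM in wild type, a ratio of 1.33. In wild type the signal was spread, with the main isoform at 19.3% of the locus and an effective number of 7.4 isoforms, against 2.11 in transgenic. Isoform 4 (1152 nt) had 50 FPKM in transgenic and 10 FPKM in wild type, 5-fold higher with rounding bounds of 4.71-fold and 5.32-fold. Its adjusted p of 0.0949, from 0.00505 in the authors' deposited table, did not pass. No isoform lost as much as isoform 4 gained, and the largest loss was that of isoform 12 (1404 nt), at 1 FPKM against 9 FPKM. As the locus sum was higher in transgenic, only part of the rise of isoform 4 was matched by falls of other isoforms.

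At 5 loci, all 4 on 7H and the second on 5H, the effective number of isoforms was higher in transgenic. For 7H-D it was 1.84 against 1 in wild type. The second locus on 7H (7H-B, from 517556348 to 517561004) had 51 FPKM in transgenic and 36 FPKM in wild type, the highest ratio of the 13, at 1.42. Isoform 5 (1169 nt) made up 80.6% of wild type with 29 FPKM and still had 17 FPKM in transgenic. Isoform 6 (1013 nt), of another start group, had 22 FPKM in transgenic and was listed at 0 in wild type, and isoform 3 (1300 nt) had 11 against 1 FPKM.

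The third locus on 7H (7H-C, from 580428440 to 580431551) went from 1 leading isoform to several. Isoform 4 (1448 nt) had 34 of 46 FPKM in wild type and 11 of 42 FPKM in transgenic. Isoform 7 (669 nt) stood at 11 FPKM in transgenic as well, against 2 FPKM in wild type, and isoform 5 (1427 nt) at 10 FPKM against a listed 0. The effective number of isoforms was 4.59 in transgenic and 1.72 in wild type, the widest opening of the 13 loci. With every value moved by 0.5 FPKM against it, the share difference of isoform 4 was just under the limit, at 39.96 percentage points.

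The first locus on 7H (7H-A, from 262015647 to 262027085) exchanged long transcripts. Isoform 6 (3683 nt) had 45 FPKM in transgenic and 7 FPKM in wild type, 6.43-fold higher (5.93-fold to 7-fold with rounding). Its unadjusted p in the authors' deposited table was 0.15, and after Benjamini-Hochberg adjustment it was 0.689. Isoform 1 (3930 nt), of another start group, had 34 and 56 FPKM. A locus that overlaps it summed to 216 FPKM in transgenic and 166 FPKM in wild type, more than the 89 and 78 FPKM of 7H-A itself. The strand of loci is not given, so how reads were divided between the overlapping loci was not tested.

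The second locus on 5H (5H-B, from 615388609 to 615401415) was the most abundant, with 296 FPKM in transgenic and 271 FPKM in wild type. Isoform 3 (898 nt) had 7 FPKM in transgenic and 126 FPKM in wild type, and was thus 18-fold lower in transgenic, with rounding bounds of 16.7-fold and 19.5-fold. Its unadjusted p in the authors' deposited table was 0.213, and after Benjamini-Hochberg adjustment it was 0.689. Isoform 5 (702 nt), of the same start group, had 147 and 63 FPKM. Isoforms 10 (435 nt) and 8 (678 nt) had 44 and 23 FPKM in transgenic and were listed at 0 in wild type, while isoform 1 (439 nt) had 62 and 67 FPKM. The gain was thus divided among several short transcripts, and the weighted mean length was 623 nt in transgenic and 748 nt in wild type. The 2 loci that overlap 5H-B summed to 89 and 77 FPKM.

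Length did not set gaining apart from losing isoforms in 1 direction. The gaining isoform was longer at 6 loci and shorter at 7, or 46.2% longer against 45.8% in the other steady loci. Gaining isoforms had a median of 1152 nt and losing isoforms of 1013 nt, while the median of the difference within a locus was -21 nt, with quartiles of -156 and 420 nt and a range from -252 to 2305 nt. With the pairs as chosen, the gains in length spread wider than the losses, through 5H-A (2305 nt longer), 6H-B (892 nt), 7H-D (423 nt) and 6H-A (420 nt). At 6H-B isoform 1 (1013 nt) fell by 24.7 points and isoform 5 (1366 nt) by 24.6, so rounding could change which is the losing isoform. With isoform 5 the difference in length would be smaller. The shorter gaining isoforms were at most 252 nt shorter, at 6H-D, and 247 nt at 7H-A. At 6H-C and 7H-C the exchanged isoforms differed by 3 and 21 nt. The median of -21 nt is the value of 7H-C, where isoform 5 (1427 nt) gained 23.8 points and isoform 7 (669 nt) gained 21.8. Rounding could thus make isoform 7 the gaining isoform there. The pair of 7H-C would then differ by more than 252 nt and have different start groups. The median absolute difference was 196 nt, against 431 nt in the other steady loci.

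**Figure D3:**
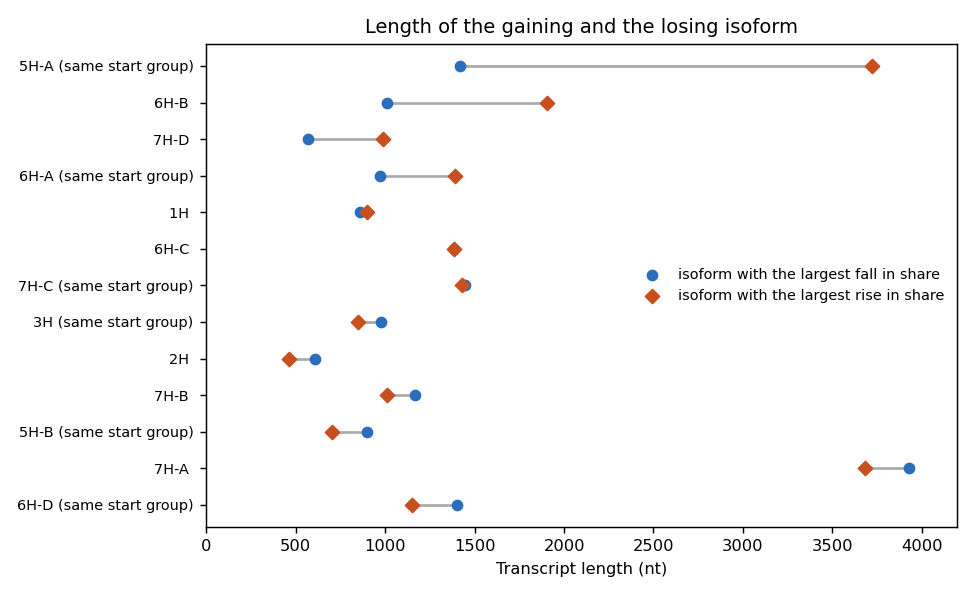
Length in nt (x axis) of the losing isoform (blue circle) and the gaining isoform (orange diamond) at each of the 13 loci, ordered by the difference, with loci marked where the pair shares a start group. The upper 6 loci have the longer isoform gaining, by 3 to 2305 nt, and the lower 7 the shorter, by 21 to 252 nt.

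The exchanged isoforms shared a start group at 6 of the 13 loci (46.2%), against 32.1% of the other steady loci. The 6 include 7H-C, where rounding could change the gaining isoform to isoform 7, of another start group. Summing the isoforms of each start group showed which exchanges moved signal between starts. At 7 loci 40 percentage points or more of the locus moved from some start groups to others, namely 7H-D (64.9 points), 2H (63.7), 6H-B (49.3), 6H-C (45.4), 1H (43.4), 7H-A (42.6) and 7H-C (40.9). At 7H-B the starts exchanged 28.4 points.

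At the remaining 5 loci most of the exchange lay among isoforms that the assembly begins at the same place. The single start group of 6H-D leaves no room for an exchange of starts. The start groups of 5H-A exchanged 5.56 points, those of 6H-A 6.15, those of 5H-B 14.9 and those of 3H 15.4, against isoform exchanges of 61.1, 68.2, 53.4 and 60.6 points at the same loci. The start group that leads 6H-A had 34 FPKM in transgenic and 42 FPKM in wild type, and that of 5H-B had 190 and 204 FPKM. At 5H-B and 3H a start group listed at 0 in wild type had 44 and 8 FPKM in transgenic, so part of their exchange was between starts. Over the 12 loci with 2 or more start groups the median exchange between starts was 41.7 points, and in the 1155 other steady loci of this kind it was 4.92 points, a contrast that the rule brings with it.

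Transcripts listed at 0 in a group were part of many exchanges. The gaining isoform was listed at 0 in wild type at 4 loci (7H-D, 6H-B, 7H-C and 7H-B), and the losing isoform was listed at 0 in transgenic at 2 (5H-A and 6H-C). Of the 37 transcripts of the 13 loci with 10 FPKM or more in a group, 11 were listed at 0 in the other, 7 of them in wild type and 4 in transgenic. In the other steady loci it was 34 of 3020 (1.13%), divided into 18 and 16. The rule draws in such transcripts, so these counts describe the loci and support nothing. A listed 0 may be a small value that was rounded down.

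The 13 loci had more transcripts and a lower level than the steady loci around them. They held a median of 6 transcripts each, from 2 to 12, against 4 in the other steady loci. Their median sum was 52 FPKM in transgenic and 57 FPKM in wild type, against 74 and 78 FPKM. Share differences of 40 points or more were found in 7 of 526 steady loci with a mean sum under 60 FPKM (1.33%), in 5 of 402 from 60 up to 120 FPKM (1.24%) and in 1 of 449 at 120 FPKM or more (0.223%). By number of transcripts they were found in 2 of 603 loci with 2 or 3 (0.332%), in 6 of 520 with 4 to 6 (1.15%) and in 5 of 254 with 7 or more (1.97%). The part that level and transcript number have in the exchanges was not tested. By chromosome, they were found in 1 of 160 steady loci on 1H (0.625%), 1 of 258 on 2H (0.388%) and 1 of 214 on 3H (0.467%). There were 0 of 180 on 4H, 2 of 215 on 5H (0.93%), 4 of 154 on 6H (2.6%) and 4 of 196 on 7H (2.04%). A difference between chromosomes was not tested.

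**Figure D4:**
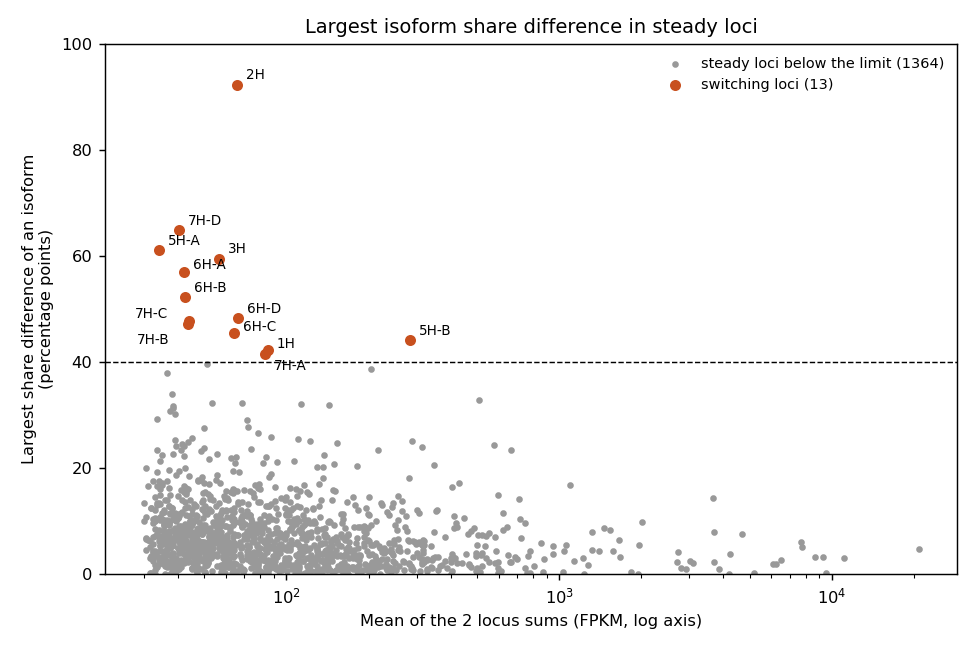
Largest share difference of any isoform in percentage points (y axis) against the mean of the locus sums in FPKM (x axis, log scale) for all 1377 steady loci, with the 13 switching loci in orange and the limit of 40 points dashed. Only 1 switching locus, 5H-B, has a mean sum above 120 FPKM, and 2H stands apart at 92.3 points.

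The make-up of most steady loci differed little, with a median largest share difference of 5.71 percentage points among the 1364 without a switch. Just inside the limit were 7H-A at 41.6 and the 1H locus at 42.4 points. With every value moved by 0.5 FPKM against them, these were at 39.03 and 39.06 points, and so under the limit, as was 7H-C. Just outside were loci on 2H from 727206601 to 727216963 at 39.5 points, on 7H from 8553570 to 8557767 at 38.7 points and on 6H from 500717795 to 500723958 at 37.9 points. Outside the ratio window, where the locus sum itself differed, 7 of 914 loci had a share difference of 40 points or more (0.766%, beside the 0.944% of steady loci).

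The authors' deposited table gives p-values that come from the contrast that chose these loci, so they serve as a description. Of the 77 transcripts, 1 had an adjusted p under 0.05 (1.3%), against 4.27% of all transcripts and 0.0972% of those in the other steady loci. At the limit of 0.05 on the values of the authors' deposited table, unadjusted, 6 of the 77 passed (7.79%), against 10.9% of all transcripts and 1.04% of those in the other steady loci. These 6 were the gaining isoforms of 5H-A, 6H-A, 6H-D and the 1H locus and the losing isoforms of 3H and 7H-D. The gaining isoform of the 2H locus, with the largest exchange, had an unadjusted p of 0.261 there (the authors' deposited table) and an adjusted p of 0.695, and its losing isoform had 0.121 and 0.689.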

How the data were processed

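Leaf RNA of 2 wild-type and 2 transgenic samples, grouped by their titles, was sequenced from SMARTER mRNA libraries, per the labels' protocols. Per the submitters' processing notes, the tools were DESeq2, RSEM, STAR and Bowtie2, with neither versions nor roles. The authors deposited 1 FPKM column per group as whole numbers, per the file headers, which were treated as a score and not as counts. The authors' deposited p-value per transcript was adjusted by the Benjamini-Hochberg method over all 51141 transcripts. The authors deposited other values per transcript, of which length in nt, class code and start group were used. The way samples were pooled and the test behind the p-values are unstated. Here, locus sums, shares and differences were computed with Python 3.11.15 and pandas 2.3.3, with rounding bounds of 0.5 FPKM and no pseudocount. The computation was tested on simulated exchanges. Starts had 1 added, as 1555 of 5804 loci of 1 transcript have a length equal to end minus start. With 1 value per group no test was made. The members and the choices were made with earlier results of these data known. The naming rule took, per pair of class codes, the 4 loci of largest share difference, then the 4 of largest sum and the 2 of longest and shortest length difference. It allowed gene model names only for pairs that include code j, which no member has, so the 4 printed names were chosen after the values were seen, and all 13 members are described. Alternatives changed the limits of the rule, the weight of isoforms, rounding and the isoforms kept.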

Additional observations from a re-analysis of the deposited data

How the results depend on the processing

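The count of 13 loci depends on the limits of the rule. It was 4 with a lowest locus sum of 60 FPKM and 34 with 15 FPKM. With a share difference of 0.3 it was 26 (1.89% of steady loci), and with 0.5 it was 6 (0.436%). Without the ratio window, an alternative chosen after seeing the data, it was 20. It stayed between 10 and 14 under the other 5 alternatives. When every value was moved by 0.5 FPKM against the exchange, 10 of the 13 loci remained, and with shares of FPKM times length 12 of the 13 were among 14. Class code = was held by all gaining isoforms in 7 of the 10 alternatives, and by 33 of 34, 25 of 26 and 18 of 20 at 15 FPKM, at 0.3 and without the window. Losing isoforms had code = in all of them. The median length difference has no firm sign. It was -21 nt as reported, 421.5 nt at a share difference of 0.5, 8.5 nt with a narrower ratio window and 3 nt with only transcripts of 5 FPKM or more in a group, and from -170 to -10.5 nt under the other alternatives that moved it. No paired analysis was possible because only group values were at hand, and for the same reason no replicate could be left out. Rounding to whole numbers limits all shares at sums near 30 FPKM.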

Other observations

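Large differences of isoforms within steady loci rarely came with a passing p in the authors' deposited table. Steady loci were chosen on the FPKM of the same contrast as these p-values, so the counts are a description. Among transcripts whose higher group reached 20 FPKM, with a value above 0 in both and a difference of 4-fold or more, limits chosen after the values were seen, 106 of 115 passed after Benjamini-Hochberg adjustment in loci of 1 transcript (92.2%) and 397 of 755 in loci of 2 or more (52.6%). In the 1377 steady loci 33 transcripts had a difference of this size and 0 passed, with a median unadjusted p of 0.306 in the authors' deposited table. Of these 33, 7 belonged to the 13 switching loci, with a median unadjusted p of 0.121. Among transcripts with 20 FPKM or more in 1 group and listed at 0 in the other, 7 of 29 passed in loci of 1 transcript, 11 of 130 in loci of 2 or more, and 1 of 21 in steady loci.

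The effective number of isoforms was lower in transgenic at all 4 switching loci on 6H and higher at all 4 on 7H. This division was noticed after the values were seen and was not tested. The other steady loci were not counted by chromosome for it, and over all chromosomes 47.9% of them had a lower number in transgenic. The division is therefore not read as a trait of 6H or 7H.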
